A study of Mus musculus with 7 samples.

Results

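The genes described are the 3 PIM kinases (Pim1, Pim2, Pim3) and 7 members of the BCL2 family (Bcl2, Bcl2l1, Mcl1, Bcl2l11, Bid, Bax and Bak1), taken from the count table by symbol. All 10 were found among 26143 rows with a symbol, and all 10 passed the filter on low counts that left 12759 genes. They were measured by RNA sequencing in sorted alveolar macrophages, which live in the airspaces of the lung and clear particles and surfactant, from C57BL/6 mice aged 4 months. The groups were 4 libraries of wild-type (WT) mice and 3 of mice labelled Cish KO (KO), with no treatment named for either. The labels do not say how the Cish allele was made, whether its loss is limited to some cells, or whether each library is a separate mouse. The p-values therefore measure only the spread between these libraries.

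Cish encodes a protein of the SOCS family that is induced by STAT5 and restrains signalling from cytokine receptors, among them the GM-CSF receptor on which alveolar macrophages depend. PIM kinases are serine/threonine kinases that are active as soon as they are made, so that their activity follows their mRNA and protein level, and Pim1 is a textbook target of STAT5 and STAT3. BCL2 family proteins decide whether the outer mitochondrial membrane is opened during apoptosis. Bax and Bak1 form the pores, Bcl2, the Bcl2l1 product BCL-XL and Mcl1 hold them in check, and the BH3-only proteins Bcl2l11 (BIM) and Bid tip the balance toward pore formation. In these bulk libraries, fewer cells of a type and less RNA per cell cannot be told apart.

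Total counts lay between 26676988 and 34347648 reads per library. Cish, the targeted gene, averaged 45.5 CPM (the read count scaled to a common library size) with an SD of 16.4 over the 4 WT libraries, and 12.7 CPM with an SD of 1.73 over the 3 KO libraries. Its log2 fold change was -1.84 by edgeR, where it missed the threshold of 0.05 (adjusted p 0.0519). Cish passed by DESeq2 (adjusted p 2.70e-11) and voom (0.0454). All 10 alveolar macrophage markers listed were expressed and summed to 22946 to 59027 CPM in WT and 47827 to 81388 CPM in KO. The chitinase-like gene Chil3 made up most of the sum, with 29771 CPM in WT and 59845 CPM in KO on average. Of the 10, 6 were higher and 4 lower in KO. Neither edgeR nor voom called any of them (0 of 10), and 4 had p under 0.05 by edgeR without adjustment (18.0% of all genes). Fabp4 had 147 and 353 CPM, Pparg 445 and 465 CPM, and Siglecf 559 and 420 CPM, without overlap and called lower by DESeq2 (adjusted p 0.00311). Of 10 neutrophil genes only Ly6g had no read in any library. That list summed to 35.9 to 60.0 CPM in WT and 29.9 to 49.9 CPM in KO. Of 5 eosinophil and mast cell genes, Mcpt4 and Ms4a2 had no read in any library. Their list summed to 0.224 to 0.477 CPM in WT and 0.350 to 0.561 CPM in KO. Markers of blood, lymphoid and vascular cells also had reads and are given beside Bcl2. WT 4 scored 7.27 on the first principal component of all genes, where the remaining WT scores were -39.4 to -24.1 and the KO scores 18.3 to 43.9. WT 4 and KO 3 follow the other 5 libraries in the deposited table, and the labels give no batch.

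For 3 of the 10 genes the libraries of the genotypes did not overlap. Pim1 and Bcl2 were higher in every KO library and Bcl2l1 was lower. By edgeR's quasi-likelihood test with Benjamini-Hochberg adjustment over all genes, 0 of the 10 passed a threshold of 0.05, while 0.0862% of all genes tested did. Without adjustment, 3 of the 10 had p under 0.05 (18.0% of all genes), 2 of them higher (9.15%) and 1 lower (8.85%). DESeq2 called 2 of the 10, while 6.11% of all genes were called. These were Pim1, higher in KO (2.88% of all genes were called higher), and Bcl2l1, lower. The voom method of limma called 0 (0.361% of all genes). Groups without overlap made up 3 of the 10 and 16.0% of all genes, with 2 of the 10 above (7.23%) and 1 below (8.72%). With edgeR, 1 of the 10 passed without the low-count filter (Pim1, 1.79% of all genes) and 1 without WT 4 and KO 3 together (Bid, 4.57%). By the same test 0 of the 10 passed when a term set WT 4 and KO 3 apart (0.149% of all genes), without WT 4 (2.25%) or without KO 3 (1.67%). With only 10 genes these shares are descriptions. Of the 10 log2 fold changes 6 were above 0 and 4 below. Their median was 0.05, against 0.00 for all genes, and their median size without sign was 0.19, against 0.16.

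**Figure D1:**
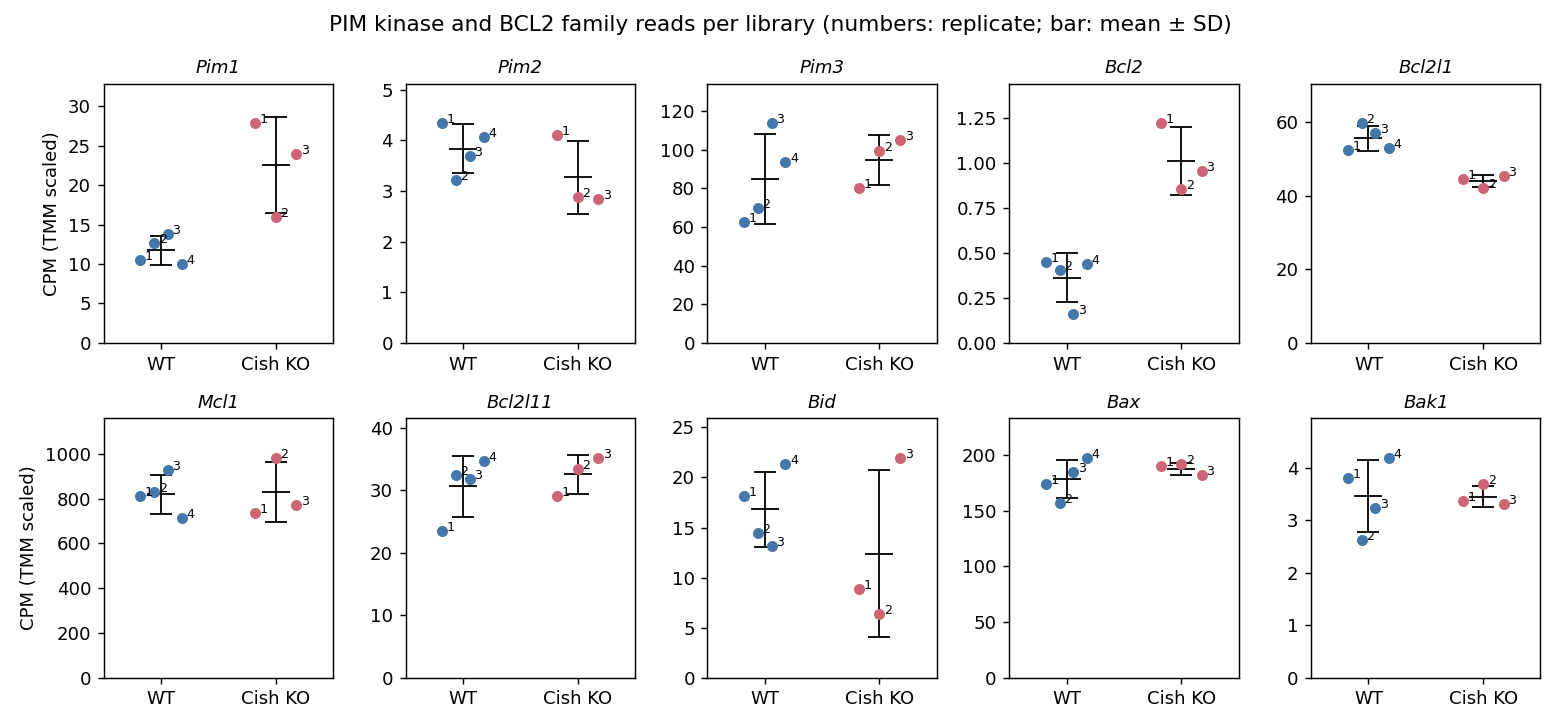
Expression of the 10 genes in CPM, on an axis from 0, for each WT and Cish KO library. Points are libraries numbered by replicate, and bars give the mean and SD (n = 4 WT, n = 3 KO). Pim1 and Bcl2 have every KO point above every WT point, Bcl2l1 has every KO point below, and the other 7 overlap.

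Pim1 was the only PIM kinase whose WT and KO libraries did not overlap. The gene lies on chromosome 17 (29490785 to 29496111, mm10, plus strand). It had 10.5, 12.7, 13.9 and 9.95 CPM in WT 1 to WT 4 and 27.9, 15.9 and 23.9 CPM in KO 1 to KO 3. KO 2 stood closest to WT, and no KO library reached down to the WT range. The means were 11.8 ± 1.84 CPM (SD, n = 4) and 22.6 ± 6.08 CPM (SD, n = 3), a 1.92-fold difference with a 95% interval of 1.41 to 2.61. Pim1 ranked 123 of 12759 genes by p, and edgeR put its log2 fold change at 0.94 (SE 0.20; adjusted p 0.0950). DESeq2 gave 0.94 with an adjusted p of 0.000492. Pim1 also passed edgeR without the low-count filter (adjusted p 0.0100). Over 17 other settings (tools, scalings, filters, left-out libraries) it passed in 2 and had a log2 fold change above 0 in 17, with an adjusted p of 0.000492 to 0.396. Without KO 1 the log2 fold change was 0.76. In the 5 libraries other than WT 4 and KO 3 it was 0.83 (adjusted p 0.0986). A non-coding gene on the opposite strand, Gm26885, shares 14.5% of the exon bases of Pim1, and the libraries do not mark strand.

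Pim2 and Pim3 did not separate the genotypes. Pim3 (chromosome 15, 88862194 to 88865726) had 62.5, 69.8, 113.6 and 93.7 CPM in WT and 80.1, 99.2 and 104.9 CPM in KO. The WT libraries spanned the whole KO range, and the log2 fold change was 0.16 with a 95% interval of -0.29 to 0.60 (adjusted p 0.714, edgeR). Pim2, on chromosome X (7878306 to 7883432), was the least abundant PIM transcript per kb of exon on average, with 4.34, 3.22, 3.69 and 4.07 CPM in WT and 4.09, 2.88 and 2.83 CPM in KO. Its interval of -0.70 to 0.25 around a log2 fold change of -0.23 includes no difference (adjusted p 0.607, edgeR). The interval of Pim3 reaches a 1.52-fold higher level, so equal levels are not shown.

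Per kb of exon, Pim3 was the most abundant PIM transcript in every library and held 84.6% to 89.7% of the summed PIM level in WT and 77.2% to 87.6% in KO. The share of Pim1 was 6.88% to 11.2% in WT and 10.2% to 19.4% in KO, with KO 2 inside the WT range. Pim2 held 2.53% to 5.10% and 1.97% to 3.43%. These shares compare levels scaled by length and rest on the GENCODE M21 exons, since the annotation the authors counted on is not given in the sources used here.

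Among the anti-apoptotic genes, Bcl2 and Bcl2l1 lay on opposite sides of WT in KO, and the Mcl1 libraries overlapped. Bcl2, the founding member of the family, lies on chromosome 1 (106538176 to 106714290, minus strand) and had few reads. Its raw counts were 16, 13, 5 and 14 reads in WT and 37, 22 and 26 reads in KO. The levels were 0.448, 0.406, 0.159 and 0.438 CPM in WT 1 to WT 4 and 1.22, 0.855 and 0.956 CPM in KO 1 to KO 3. Each KO library was above all WT libraries. The fold change was 2.76 with a 95% interval of 1.49 to 5.13. With a log2 fold change of 1.47 (SE 0.40), Bcl2 missed the threshold by edgeR (adjusted p 0.124) and by DESeq2 (0.0515). The log2 fold change was above 0 in 16 of 16 such settings that kept the gene and passed in 0, with an adjusted p of 0.0515 to 0.488. It was 1.23 without WT 3 and 1.60 in the 5 libraries other than WT 4 and KO 3. D630008O14Rik, on the opposite strand, shares 6.09% of the Bcl2 exon bases and had 0 to 1 reads per library.

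Markers of other cell types were read in the same libraries, and those of epithelial cells are given under other observations. Endothelial and stromal markers were higher in KO for 7 of 7 genes. Their median difference was 1.25 on the log2 scale, and they summed to 13.1 to 16.7 CPM in WT and 23.3 to 33.6 CPM in KO. Lymphocyte markers were higher for 7 of 9, with a median of 0.36, and summed to 2.20 to 6.10 CPM in WT and 4.27 to 13.1 CPM in KO. For red cells and platelets 5 of 5 tested genes were higher, with sums of 15.7 to 350 CPM in WT and 295 to 859 CPM in KO. Monocyte and interstitial macrophage markers were higher for 6 of 7 tested genes, with a median of 0.66, and summed to 5.41 to 18.1 CPM in WT and 9.74 to 18.8 CPM in KO. The sums of the endothelial and stromal list did not overlap between genotypes, and those of the other 3 lists did. Each marker on these 4 lists that the table holds had reads in at least 1 library. By edgeR 0 of these markers passed. An unadjusted p under 0.05 by edgeR (18.0% of all genes) was found for 1 monocyte or interstitial macrophage gene and 3 endothelial or stromal genes. The same held for 1 lymphocyte gene and 1 red cell or platelet gene. DESeq2 called Pecam1, Cdh5 and Klrb1c higher (2.88% of all genes were called higher), and voom called 0 (0.361% of all genes). All 3 had few reads. Pecam1 averaged 1.03 CPM in WT and 2.79 CPM in KO, and Cdh5 0.120 and 0.735 CPM. Klrb1c had 0.0636 to 0.344 CPM in WT and 0.147 to 3.92 CPM in KO, with overlap. KO 1 had the highest level of Bcl2 and of the lymphocyte and endothelial sums, and WT 3 had the lowest level of Bcl2 and of the sums of all 4 lists. The part of these cells in the Bcl2 and Pim1 differences was not tested.

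The stretches before the start sites of Pim1 and Bcl2 are shown because these are the members with every KO library above every WT library. Neither passed the threshold by edgeR. They are RefSeq promoter sequences of GRCm38.p6 (mm10), 5′ to 3′ on the gene's strand, and end where the first RefSeq or GENCODE exon begins. Capitals mark GGGCGG or its reverse complement CCGCCC, the GC box.
Pim1 (chr17:29490535-29490752, plus strand): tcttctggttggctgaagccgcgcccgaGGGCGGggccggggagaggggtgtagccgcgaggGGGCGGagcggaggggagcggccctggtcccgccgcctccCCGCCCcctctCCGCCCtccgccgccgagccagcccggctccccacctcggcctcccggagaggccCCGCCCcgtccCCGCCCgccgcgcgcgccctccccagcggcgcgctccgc
Bcl2 (chr1:106714291-106714540, minus strand): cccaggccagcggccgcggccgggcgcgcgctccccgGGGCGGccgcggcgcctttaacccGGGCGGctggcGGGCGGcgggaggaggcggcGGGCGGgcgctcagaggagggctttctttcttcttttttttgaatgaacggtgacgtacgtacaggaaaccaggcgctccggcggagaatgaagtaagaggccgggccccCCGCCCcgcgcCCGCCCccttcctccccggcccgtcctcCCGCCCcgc
The Pim1 stretch of 218 bases held 6 GC boxes and the Bcl2 stretch of 250 bases held 7, overlapping matches included. The palindrome TTCNNNGAA, the core recognised by STAT5, was searched in windows from 250 bases before to 50 after each start. It was in 0 of the 14 windows that RefSeq lists for the 10 genes, against 8.30% of all 32851 windows. TATAAA, on either strand, was in 0 of the 14 and in 13.6% of all. GGGCGG on either strand was in 9 of the 14 and in 35.7% of all. The GC box and TATAAA were searched only after TTCNNNGAA had given no match. The window of Pim1 that holds the printed stretch had 81.3% G and C, the other Pim1 window 49.0% and no GC box, and that of Bcl2 76.0%, against a median of 52.7%. No match says only that these letters are not in these windows.

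Bcl2l1, which encodes the anti-apoptotic BCL-XL, was the only one of the 10 genes with every KO library below every WT library. The gene lies on chromosome 2 (152758732 to 152833803, minus strand). It had 52.5, 59.8, 57.1 and 53.01 CPM in WT 1 to WT 4 and 44.5, 42.1 and 45.3 CPM in KO 1 to KO 3. All KO libraries were below all WT libraries, with a gap between KO 3 and WT 1 wider than the range within KO. The means were 55.6 ± 3.47 CPM (SD, n = 4) and 44.0 ± 1.66 CPM (SD, n = 3), 1.26-fold lower in KO. On the log2 scale the difference was -0.34 (SE 0.08), for an adjusted p of 0.0975 with edgeR and 0.0127 with DESeq2. The log2 fold change lay between -0.39 and -0.30 in the 17 settings and passed in 1, with an adjusted p of 0.0127 to 0.410. Counts per gene do not separate the long anti-apoptotic from the short pro-apoptotic splice form.

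Mcl1, a short-lived guardian on which many myeloid cells depend, was the most abundant of the 10 genes per kb of exon. It lies on chromosome 3 (95656944 to 95663179) and had 811, 829, 926 and 714 CPM in WT and 736, 981 and 771 CPM in KO. The genotypes overlapped over most of their range, and the fold change of 1.01 had a 95% interval of 0.83 to 1.23 (adjusted p 0.964, edgeR). The 2 libraries with the most Mcl1, KO 2 and WT 3, were also those with the highest summed level of 16 immediate early genes, at 13037 and 12608 CPM, against 6362 to 8133 CPM in the other 5. Of these genes, which respond within minutes to handling and other stimuli, 9 of 15 tested were higher in KO. By edgeR 1 had an unadjusted p below 0.05 (18.0% of all genes), while 0 passed after adjustment by edgeR, DESeq2 or voom. The part of that response in the Mcl1 level was not tested.

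**Figure D2:**
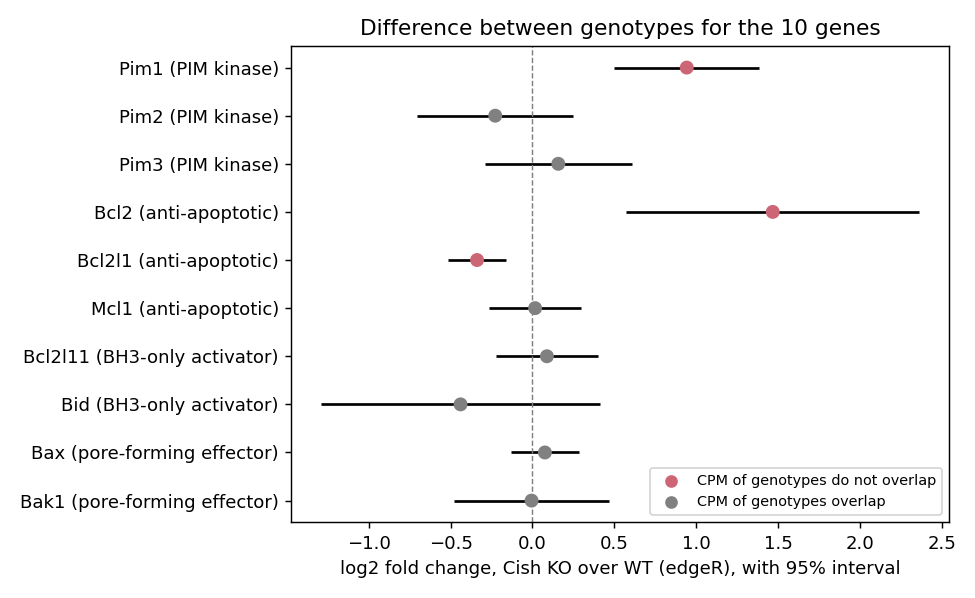
Log2 fold change of KO over WT for the 10 genes by edgeR, with 95% intervals as horizontal lines and 0 as the dashed line. Red points mark genes whose CPM do not overlap between genotypes. The intervals of Pim1, Bcl2 and Bcl2l1 lie off 0, and those of the other 7 cross it.

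Bcl2l11 encodes BIM, an activator that GM-CSF and other survival cytokines hold down. The gene lies on chromosome 2 (128126038 to 128162547) and had 23.5, 32.4, 31.8 and 34.7 CPM in WT and 29.1, 33.3 and 35.2 CPM in KO. WT 1 was the lowest library, and the other 6 lay between 29.1 and 35.2 CPM. The log2 fold change was 0.09 with an interval of -0.22 to 0.40 (adjusted p 0.776, edgeR), and it was -0.019 without WT 1.

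Bid, which is cleaved by caspase-8 to carry death receptor signals to mitochondria, varied most within KO. The gene is on chromosome 6 (120893119 to 120917062). It had 18.2, 14.5, 13.2 and 21.4 CPM in WT, and 8.88 and 6.37 CPM in KO 1 and KO 2 but 21.95 CPM in KO 3. KO 1 and KO 2 were below every WT library and KO 3 was above every one. With all 7 libraries the log2 fold change was -0.44 (SE 0.38, edgeR adjusted p 0.576). It was -1.14 without KO 3 (adjusted p 0.0573), -0.13 without KO 2, -0.25 without KO 1 and -0.30 without WT 4. In the 5 libraries other than WT 4 and KO 3 Bid was lower in KO, at -1.0 with an edgeR adjusted p of 0.0430, in a fit that called 4.57% of all genes. WT 4 and KO 3, the pair at the end of the table, had the highest Bid levels of the 7. Bid shares 17.7% of its exon bases with Bcl2l13 on the opposite strand, and Bcl2l13 showed -0.036 on the log2 scale (adjusted p 0.860, edgeR).

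The pore formers did not separate the genotypes. Bax, on chromosome 7 (45461695 to 45466903), had 174, 157, 185 and 197 CPM in WT and 190, 192 and 182 CPM in KO. Its KO range lay inside the WT range, and the interval of the fold change was 0.91 to 1.22 (adjusted p 0.703, edgeR). Bak1, on chromosome 17 (27019812 to 27028627), had 3.80, 2.63, 3.24 and 4.19 CPM in WT and 3.37, 3.69 and 3.31 CPM in KO. Its log2 fold change of -0.0055 had an interval of -0.48 to 0.47 (adjusted p 0.994, edgeR). Ggnbp1 shares 25.5% of the Bak1 exon bases on the opposite strand and had 3 to 13 reads per library. Gm45808, on the same strand as Bax, shares 12.2% of the Bax exon bases.

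**Figure D3:**
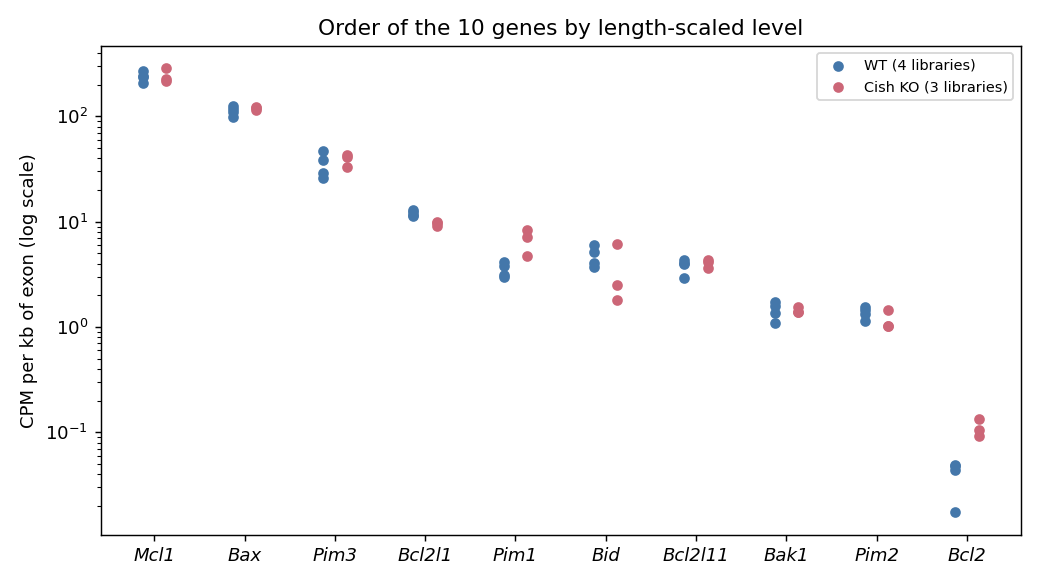
Level of each gene per kb of exon (log axis) in the 4 WT and 3 KO libraries, ordered by the mean over all 7. Mcl1, Bax, Pim3 and Bcl2l1 each stand clear of the next gene, Pim1, Bid and Bcl2l11 overlap, as do Bak1 and Pim2, and Bcl2 is lowest.

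Scaled by exon length, 5 of the 10 genes had a clear place in the order of levels. Mcl1 stood at 241 CPM per kb on average over the 7 libraries, Bax at 116, Pim3 at 36.7 and Bcl2l1 at 11.04, each without overlap with the next. Pim1 (4.88), Bid (4.20) and Bcl2l11 (3.92) could not be ordered, since their libraries overlapped, and the same held for Bak1 (1.44) and Pim2 (1.28). Bcl2, at 0.0699 CPM per kb, was below all others in every library. Mcl1 made up 94.7% to 95.6% of the summed level of the 3 anti-apoptotic genes in WT and 95.6% to 96.9% in KO. Bcl2l1 made up 4.397% to 5.24% and 3.10% to 4.31%. Other anti-apoptotic relatives, chiefly the Bcl2a1 genes, are not in these shares. In CPM those relatives summed to 856 to 984 in WT, where Mcl1 averaged 820. Of the 4 pro-apoptotic genes, Bax held 91.2% to 92.8% in WT and 90.6% to 94.2% in KO.

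The balance between the guardians and killers among the members, which leaves out the Bcl2a1 genes, depended on how it was summarised. The log2 ratio of the summed CPM of Bcl2, Bcl2l1 and Mcl1 to that of Bcl2l11, Bid, Bax and Bak1 was 1.98, 2.11, 2.08 and 1.57 in WT and 1.75, 2.12 and 1.75 in KO. These values, which Mcl1 and Bax dominate, overlapped between genotypes, with means of 1.93 ± 0.25 (SD, n = 4) and 1.88 ± 0.21 (SD, n = 3). Without Mcl1 the log2 ratio was -2.05, -1.78, -2.02 and -2.27 in WT and -2.34, -2.45 and -2.39 in KO, lower in every KO library. That version is mostly Bcl2l1 over Bax, which averaged 55.6 and 178 CPM in WT, so it largely restates the Bcl2l1 difference. With a mean of log2 CPM in place of the sums, the difference was 0.26 in the other direction, and the genotypes overlapped. That version lets the scarce Bcl2 count for more than the sums do. A constant added to CPM before the log shrinks the Bcl2 difference in it. Bid also enters that mean, and it was below every WT library in KO 1 and KO 2 but above every one in KO 3. No test was run on a score over chosen genes.

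**Figure D4:**
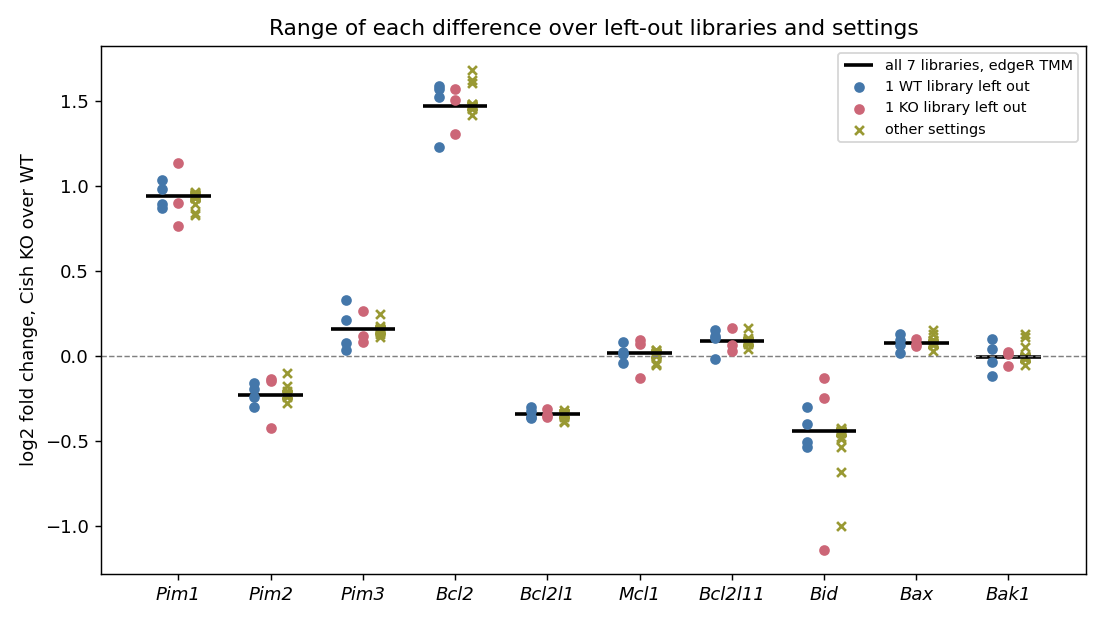
Log2 fold change of each gene over all 7 libraries (black line), with 1 WT library (blue) or 1 KO library (red) left out, and under the other settings (crosses). Pim1 and Bcl2 stay above 0 and Bcl2l1 below under every setting drawn, Bid ranges from -1.14 to -0.13, and Mcl1, Bcl2l11 and Bak1 cross 0.

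The expression patterns of Pim1 and of Bcl2 over the 7 libraries were compared with those of 8114 other genes with a mean of at least 10 CPM. The measure was the mean absolute difference of standardised log2 CPM, which was also taken between the 10 genes. Among the 3 genes closest to Pim1 were Secisbp2l (0.18 SD) and Wrb (0.19 SD). Secisbp2l had 58.2 to 61.8 CPM in WT and 65.5 to 77.02 CPM in KO, a smaller fold difference than that of Pim1. Closest to Bcl2 were the importin gene Ipo4 (0.12 SD), the extracellular matrix gene Emilin1 (0.17) and Vwa8 (0.18). Within the 10 genes the closest pairs were Bax and Bak1 (0.48), Pim3 and Bcl2l11 (0.50) and Pim1 and Bcl2 (0.57). These are the closest of many genes over 7 libraries, given as a description.

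Other genes of the same pathways were read from the same fit. Of 86 genes on 8 lists, 80 were tested, 45 with a log2 fold change above 0 and 35 below, with a median of 0.04. By edgeR 0 passed, 26 of 80 had an unadjusted p below 0.05 (32.5%, against 18.0% of all genes), DESeq2 called 10 (6.11% of all genes), and voom called 2, Cish and Socs3 (0.361% of all genes). The counts at an unadjusted p, by DESeq2 and by voom all include Cish, the targeted gene. The lists were drawn up with earlier results of these data known.

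Of the other anti-apoptotic relatives, 3 of 4 tested genes had lower mean levels in KO, and the median over the 4 was -0.18 on the log2 scale. These were the Bcl2a1 genes, NF-kB targets typical of myeloid cells, which are near-identical copies and may share reads. Bcl2a1a averaged 256 CPM in WT (SD 14.9) and 216 CPM in KO (SD 12.6), without overlap (adjusted p 0.178, edgeR). Bcl2a1d had 288 and 248 CPM and Bcl2a1b, highest of the list in CPM, 350 and 319 CPM, with adjusted p of 0.250 and 0.463 by edgeR. Bcl2l10 had no read in any library. The list summed to 856 to 984 CPM in WT and 759 to 838 CPM in KO, without overlap.

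Of the other pro-apoptotic relatives 5 of 7 were tested, 2 higher and 3 lower, with a median of -0.14. Bok, a pore former, had 3.66 and 6.52 CPM (log2 fold change 0.84, edgeR adjusted p 0.177). Bad, the BH3-only protein that PIM kinases inactivate by phosphorylation, had 49.5 and 41.7 CPM (-0.25, edgeR adjusted p 0.178). Pmaip1 (NOXA), the partner that targets Mcl1, had the highest CPM of this list, with 102 and 92.8 CPM. Among the divergent relatives, all 5 tested genes were below 0, with a median of -0.06. Bnip3, a receptor for mitophagy, averaged 32.8 CPM in WT (SD 5.09) and 22.6 CPM in KO (SD 3.82), and was called lower by DESeq2 (adjusted p 0.0282) but not by edgeR (0.133). Bnip3l had 239 and 226 CPM.

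Downstream of the mitochondria, 11 of 21 genes of the apoptosome, caspases and their inhibitors were higher and 10 lower, with a median of 0.01. Cflar, which encodes the caspase-8 inhibitor c-FLIP, came closest to passing edgeR on this list. It averaged 26.5 CPM in WT (SD 2.10) and 41.3 CPM in KO (SD 5.39). The log2 fold change was 0.64 (SE 0.11, adjusted p 0.0705 by edgeR), and DESeq2 called it and Birc6 higher. Birc5, a mitotic protein also known as survivin, had 33.9 and 25.8 CPM (-0.40, adjusted p 0.0950 by edgeR), and DESeq2 called it lower. Vdac2, a mitochondrial channel that binds Bak1, had the highest CPM, with 282 and 285 CPM.

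**Figure D5:**
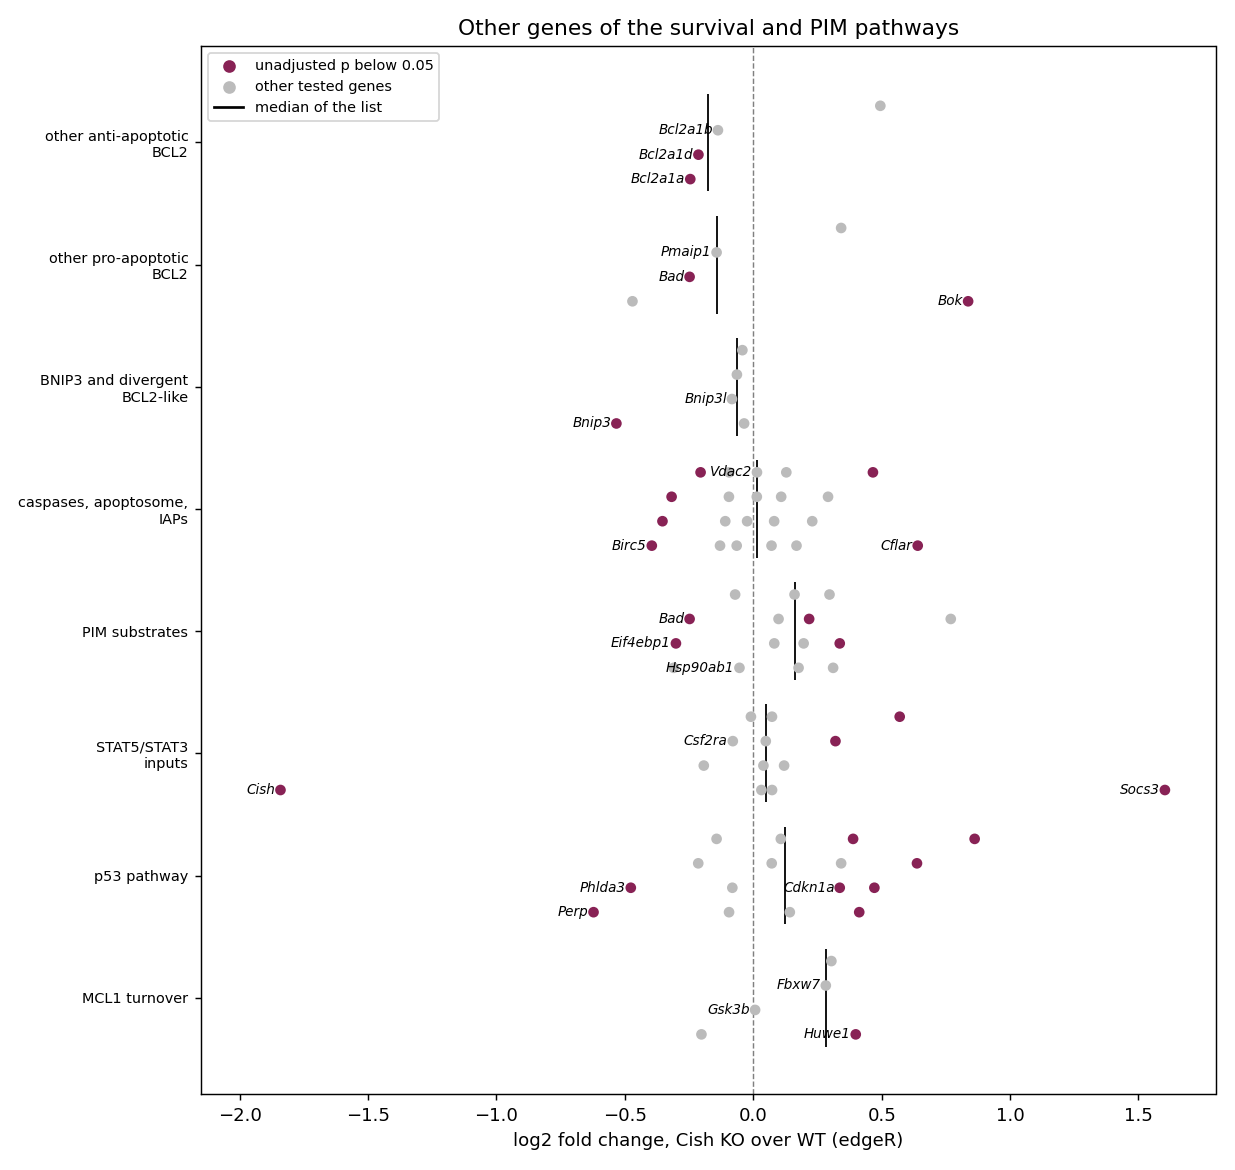
Log2 fold change of KO over WT (edgeR) for each tested gene on 8 pathway lists. Purple points have an unadjusted p below 0.05, vertical bars are list medians, and labels name the genes chosen by rule; Socs3 at 1.60 and Cish at -1.84 lie farthest out.

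Of 13 genes of the cytokine to STAT5 and STAT3 route, 9 were higher, with a median of 0.05. The list holds receptors, kinases and STATs, and also the feedback inhibitors Cish, Socs1, Socs2 and Socs3. Apart from Cish, the gene with the smallest p was Socs3, the feedback inhibitor induced by STAT3, with 13.9 and 42.4 CPM (log2 fold change 1.60, edgeR adjusted p 0.0561). It had 10.1 to 18.6 CPM in the WT libraries and 33.1 to 52.1 CPM in the KO libraries, without overlap, and passed by DESeq2 (adjusted p 1.50e-08) and voom (0.0286). Csf2ra, the GM-CSF receptor alpha chain, had 806 and 763 CPM (-0.080, edgeR adjusted p 0.706). Of 15 PIM substrates and partners 10 were higher and 5 lower, with a median of 0.16. Eif4ebp1, a brake on translation that PIM kinases can relieve, had 87.4 and 71.0 CPM (-0.30, edgeR adjusted p 0.121), and DESeq2 called it lower. The chaperone Hsp90ab1, highest of the list in CPM, had 1534 and 1478 CPM. mRNA counts do not show phosphorylation.

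The p53 pathway, which controls Bax, Bbc3 and Pmaip1, had 10 of 16 genes higher and 6 lower, with a median of 0.12 and 8 genes at an unadjusted p below 0.05 by edgeR (18.0% of all genes). Phlda3 had 162 and 116 CPM (-0.48, edgeR adjusted p 0.0946) and Perp 292 and 190 CPM (-0.62, edgeR adjusted p 0.106). DESeq2 called both lower and Trp53inp1 higher, while it called 6.11% of all genes. Cdkn1a, the cell cycle inhibitor p21, had the highest CPM, with 619 and 782 CPM (0.34, edgeR adjusted p 0.235). Among the enzymes that control the stability of MCL1, 4 of 5 tested were higher, with a median of 0.28. Huwe1, a ubiquitin ligase for MCL1, had 16.5 and 21.7 CPM (0.40, edgeR adjusted p 0.175). Fbxw7 had 19.1 and 23.2 CPM (0.28), and Gsk3b 81.0 and 81.4 CPM.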

How the data were processed

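RNA from sorted alveolar macrophages was made into libraries with Nextera XT, per the labels' protocols, a kit that does not mark strand. The authors deposited raw read counts per gene symbol for 7 libraries, produced with rsubread per the file's name. The submitters' processing notes name mm10 and DESeq2. The sources used here give no version, annotation or rule for multi-mapping reads. Of 27179 rows, 1036 without a symbol (0.376% to 0.424% of counts) were left out.

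From the counts, edgeR 4.0.16 (R 4.3.3) kept 12759 genes by filterByExpr, scaled libraries by TMM and ran the quasi-likelihood F test on genotype, with Benjamini-Hochberg adjustment over all genes and calls below 0.05. SE is the absolute log2 fold change over the root of F, and intervals are 95%. CPM use TMM library sizes. The code was run on simulated counts with the same dispersion for all genes. That setting lacks the gene-wise spread of these data, so it does not show how reliable the calls are. Alternatives were DESeq2 1.42.0, voom of limma 3.58.1, other scalings and filters, a replicate block, and left-out libraries. Named genes were the 10 members, Cish, and per list the called genes, or the 2 with the smallest p, and the gene highest in CPM, which is not scaled by length. Other genes named for DESeq2 calls or as markers, and genes sharing exons with members, were chosen after their values were seen. Members and lists were chosen with earlier results of these data known. The labels name no molecular identifiers, so copies of 1 molecule cannot be told apart. DESeq2 was run on rows with a read and an independent-filtering level of 0.05, chosen after other settings had been run. One gene that the rule for similar patterns names is not reported here.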

Additional observations from a re-analysis of the deposited data

Results flagged for a closer look

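Among the 4 WT libraries, Bcl2 in WT 3 lay apart from the others at 0.159 CPM (5 reads), with the other 3 at 0.406 to 0.448 CPM. Its gap to the nearest library was 0.857 of the whole WT range, above Dixon's 95% critical value for 4 samples. Of 10 genes looked at this was the only one, and chance gives about 1 such library in 20 groups.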

How the results depend on the processing

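The number of all genes called, 11 by edgeR, was 775 with DESeq2, 397 with no filter, 21 with at least 5 CPM in 3 libraries, 46 with voom, 430 (3.37%) with the replicate block, 590 without WT 4 and KO 3 together and 19 with a term for that pair. With 1 library left out it ranged from 7 to 284. After the data were seen, 6 other DESeq2 settings of filter and filtering level were run. They called 730 (all rows) and 746 at a level of 0.1, 758 and 778 with a total of at least 10 reads (levels 0.1 and 0.05), and 743 and 751 on the genes of edgeR's filter. Each called 2 of the 10 members, Pim1 at an adjusted p of 0.000501 to 0.000585 and Bcl2l1, and 10 or 11 pathway genes. Of the 10 members, 0 called became 2 with DESeq2 (Pim1 and Bcl2l1), 1 with no filter (Pim1) and 1 without WT 4 and KO 3 together (Bid), and 0 under all other settings, left-out libraries included. Pathway genes called went from 0 to 10 with DESeq2, 5 with no filter, 6 with the block, 6 without WT 4 and KO 3 together, 2 with the 5 CPM filter, 2 with voom, 1 with library sizes only and 1 with the pair term, and ranged from 0 to 7 with 1 library left out. The same-numbered libraries, centred within genotype, had correlations of -0.01, 0.14 and -0.02. Over all combinations of a WT and a KO library the values ran from -0.21 to 0.16. With so few libraries these values cannot decide whether replicate numbers pair them. Under the replicate block WT 4 takes no part in the comparison, and Pim1 was at 0.84 (adjusted p 0.0896), Bcl2 at 1.62 (0.120) and Bcl2l1 at -0.36 (0.114), by edgeR. Mcl1 changed sign to -0.039 with library sizes only, -0.044 with voom and -0.054 with the block, and ranged from -0.13 to 0.10 with 1 library left out. Bak1 went to 0.051 with voom, 0.11 with the block and 0.13 without WT 4 and KO 3 together, and ranged from -0.12 to 0.10 with 1 left out. Bcl2l11 ranged from -0.019 to 0.16. The difference in the log2 ratio of anti-apoptotic to pro-apoptotic CPM, -0.06, was 0.26 with mean log2 CPM and -0.36 without Mcl1, and ranged from -0.18 to 0.01 with 1 library left out. The cause of these changes was not tested. The filter at 5 CPM removed Bcl2, Pim2 and Bak1, so they have no value there. Few reads limit Bcl2, Bak1 and Pim2 most.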

Other observations

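Epcam, an adhesion molecule of epithelial cells, had 209 CPM in WT and 43.8 CPM in KO, without overlap between libraries (log2 fold change -2.25, adjusted p 0.143 by edgeR), while the other 6 tested epithelial markers were above 0. The epithelial list, Epcam included, summed to 194 to 379 CPM in WT and 176 to 197 CPM in KO. Its median over the 7 tested markers was 0.93 on the log2 scale, so most single markers did not follow the lower sum. Before adjustment, edgeR put 3 of the 7 under 0.05 in either direction (18.0% of all genes). Of the neutrophil markers 4 were tested, 1 higher and 3 lower in KO, with 0 called by edgeR or voom. S100a8 had 9.45 CPM in WT and 19.0 CPM in KO, with overlap. The neutrophil marker and G-CSF receptor gene Csf3r had 33.7 CPM in WT and 17.6 CPM in KO and was called lower by DESeq2, while Cxcr2 had 3.53 and 3.12 CPM. Epcam, Csf3r and S100a8 were chosen after their values were seen.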
